A study of Mus musculus with 15 samples.

Results

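Gapdh and Pgk1 encode enzymes at adjoining steps of glycolysis, and both are widely used as internal standards for RNA measurements. They are 2 of the 16 genes that could be named from the files, and were followed here by 5 of the 60998 probes on the array, in mouse liver after a sham operation, after ischaemia and reperfusion (I/R), and after I/R preceded by ischaemic preconditioning (IPC). The 3 probes of Gapdh were the array's probe for its RefSeq mRNA, printed as 20 spots, and a pair of control probes of 10 spots each, whose names end in 3 and 5. Pgk1 was measured by such a pair of control probes alone, so that both genes together covered 60 spots on every array. By the usual naming of such controls, the endings mark the 3′ and 5′ ends of the transcript, and the probes are called so below. Their sequences were not used here, and which related transcripts, such as those of the processed copies of either gene, the probes also bind was not checked.

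The series holds 15 one-colour lncRNA and mRNA arrays of liver RNA from C57BL/6 mice, 5 per group. All groups, sham included, had sodium pentobarbital (60 mg per kg) and an opened abdomen, and in sham the vessels at the liver hilum were handled without being clamped. In I/R, 70% of the liver was clipped off from its blood supply for 75 minutes and then reperfused for 2 hours. The IPC group had 10 minutes of ischaemia and 10 minutes of reperfusion first, and then the same 75 minutes and 2 hours. According to the study's design 18 mice were used, with 6 in each group, but no label ties an array to a mouse, so p-values measure only the spread between these arrays. The age and sex of the mice are not stated in the labels, and every group is C57BL/6 with no transgene.

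Glyceraldehyde-3-phosphate dehydrogenase, the product of Gapdh, oxidises glyceraldehyde 3-phosphate and passes the electrons to NAD+. Phosphoglycerate kinase 1, the product of Pgk1, then transfers the phosphate from the resulting 1,3-bisphosphoglycerate to ADP, which is the first step of the pathway that yields ATP. Both reactions are reversible, and in hepatocytes they also run towards glucose during gluconeogenesis. In many cell types the 2 genes are transcribed more in low oxygen, through hypoxia-inducible factors that bind DNA elements with the core letters ACGTG or GCGTG.

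Because that element is the known link between oxygen and both genes, their promoter windows are shown, each 250 bases before to 50 bases after the start of transcription, from RefSeq on GRCm38.p6. Capitals mark ACGTG or its reverse complement CACGT, and both strands were searched.
Gapdh, chr6:125165724-125166023, minus strand: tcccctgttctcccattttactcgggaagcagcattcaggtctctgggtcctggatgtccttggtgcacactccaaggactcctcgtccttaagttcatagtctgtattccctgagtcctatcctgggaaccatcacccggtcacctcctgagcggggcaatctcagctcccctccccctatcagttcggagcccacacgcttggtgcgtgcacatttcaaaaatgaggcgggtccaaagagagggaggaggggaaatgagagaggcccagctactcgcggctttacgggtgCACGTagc
Pgk1, chrX:106186850-106187149, plus strand: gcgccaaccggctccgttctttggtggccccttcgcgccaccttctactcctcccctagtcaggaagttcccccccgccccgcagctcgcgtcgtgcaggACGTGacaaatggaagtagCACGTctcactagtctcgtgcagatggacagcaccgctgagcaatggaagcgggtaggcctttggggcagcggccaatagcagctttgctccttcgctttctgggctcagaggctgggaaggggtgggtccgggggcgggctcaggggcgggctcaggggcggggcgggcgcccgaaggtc
The Pgk1 window holds 2 matches, at bases -150 and -131 from the start. The Gapdh window holds 1 match, at base 43 of the transcript, and 2 matches to GCGTG, at bases -54 and -44. Of 32851 mouse promoter windows of 300 bases, 19.6% hold ACGTG and 8.21% hold it 2 or more times. GCGTG is held by 32.4% of them, and 2 or more times by 11.1%. The windows are 56.7% G and C for Gapdh and 66.7% for Pgk1. A match describes letters in the window and does not show binding, which these arrays do not measure.

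Levels are log2 processed spot signals after subtraction of the array's 75th percentile over the non-control spots. They are means over the spots of a probe that were not marked as outliers, and of their 900 spots over the 15 arrays 37 were so marked. Every spot of these 5 probes exceeded background clearly on each of the 15 arrays, and none was saturated. The arrays fell into 2 sets by their scan time, which are called slides here, although no slide identifier was read. I/R arrays 1 to 3 shared slide 2 with all 5 sham arrays. I/R arrays 4 and 5 shared slide 1 with all 5 IPC arrays. The 75th percentiles were 8.47 to 8.76 on slide 1 and 8.06 to 8.30 on slide 2, and each array had 49.98% to 59.6% of its probes well above background. None of the 24 cell type markers listed for liver carried a name on the array, so the tissue label could not be checked against them. Fewer cells of a type and less RNA per cell cannot be told apart in such whole-tissue samples.

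Comparing I/R with sham asks which transcripts differ once the liver has been clamped and reperfused. Transcripts of both enzymes were lower after I/R by 4 of the 5 probes, with changes of -22.7% to -9.57% on the linear scale, and the 5′ control of Gapdh did not pass the test. Calls were made in limma over 34985 tested probes, at an adjusted p under 0.05. By that rule 16.4% of all tested probes were lower in I/R than in sham and 30.9% differed in either direction, so a fall of 1 probe is common on these arrays.

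For Gapdh, the probe for the mRNA read 8.56, 8.64, 8.65, 8.56 and 8.51 on sham arrays 1 to 5. On I/R arrays 1 to 5 its levels were 8.32, 8.31, 8.36, 8.29 and 8.44. The highest I/R array thus lay below the lowest sham array. The mean went from 8.58 ± 0.0599 (SD, n = 5) to 8.35 ± 0.0593 (SD, n = 5), a difference of -0.24 (SE 0.0482, limma adjusted p = 0.00181), or -15.2% in signal. At 20 of the 20 spot positions the I/R mean was below the sham mean. Here and below, the spots are copies of 1 probe on the same arrays, so their agreement is not further evidence on the groups.

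The 3′ control of Gapdh was lower in I/R as well. In sham it was at 7.55, 7.58, 7.65, 7.56 and 7.42, and in I/R at 7.10, 7.08, 7.12, 7.25 and 7.36. No I/R array reached the lowest sham array, and I/R arrays 4 and 5, those on slide 1, were the nearest to sham. The group means were 7.55 ± 0.0847 and 7.18 ± 0.119 (SD, n = 5 each). Their difference of -0.37 (SE 0.0637) had a limma adjusted p of 0.000539 and corresponds to -22.7% in signal, with I/R lower at 10 of 10 spot positions.

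The 5′ control of the same gene gave another picture. Its sham levels were 6.58, 6.66, 6.71, 6.60 and 6.62, and its I/R levels were 6.66, 6.69, 6.69, 6.55 and 6.68. These ranges overlap almost wholly, with means of 6.63 ± 0.0528 and 6.66 ± 0.0578 (SD, n = 5 each). The difference was 0.02, with a 95% confidence interval of -0.07 to 0.12 and a limma adjusted p of 0.753. I/R was below sham at 3 of 10 spot positions.

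Pgk1 fell by both of its control probes. The 3′ control read 7.51, 7.55, 7.61, 7.48 and 7.53 in sham and 7.38, 7.40, 7.37, 7.34 and 7.46 in I/R. The groups did not overlap, although I/R array 5 came close to the lowest sham array. Means of 7.54 ± 0.0480 and 7.39 ± 0.0453 (SD, n = 5 each) differ by -0.15 (SE 0.0433, limma adjusted p = 0.0203), which is -9.57% in signal. Leaving out sham array 3 gave a difference of -0.13 with an adjusted p of 0.0523, just short of the call.

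At the 5′ control of Pgk1 the sham arrays read -0.11, -0.06, -0.04, -0.11 and 0.02, close to the 75th percentile of their arrays. The I/R arrays read -0.28, -0.27, -0.14, -0.57 and -0.45, all lower and more widely spread. From -0.06 ± 0.0537 to -0.34 ± 0.170 (SD, n = 5 each) the mean changed by -0.28 (SE 0.0754, limma adjusted p = 0.0109), or -17.8% in signal. Both Pgk1 controls were lower in I/R at 10 of 10 spot positions.

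Counted together, 4 of the 5 probes had groups that did not overlap, all lower in I/R, where 13.0% of the tested probes were lower in that way and 23.0% did not overlap in either direction. For each of those 4, the exact two-sided permutation test over arrays gave p = 0.00794, the smallest that 5 arrays against 5 allow. Groups that do not overlap always give that value, so the test adds nothing to the lack of overlap.

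**Figure D1:**
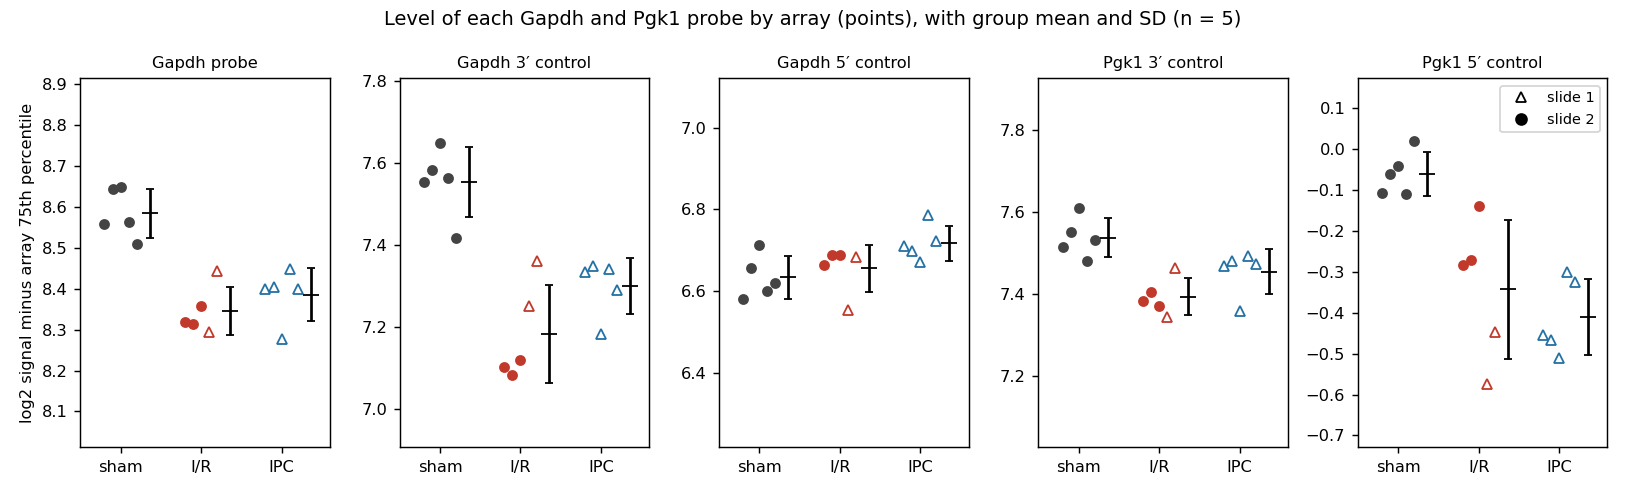
Level of each of the 5 probes (log2 signal minus the array's 75th percentile, vertical axes of equal span but different position) on the 15 arrays, with group mean and SD (n = 5); filled circles are arrays of slide 2 and open triangles arrays of slide 1. The sham points lie above all I/R points in every panel but that of the Gapdh 5′ control, where the groups overlap, and the 2 I/R triangles of the Gapdh 3′ and Pgk1 5′ controls lie apart from the 3 I/R circles.

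The slide moved with the groups, so each difference was also taken on slide 2 alone, with 3 I/R and 5 sham arrays. The Gapdh probe differed there by -0.25 (limma adjusted p = 0.0102), the Gapdh 3′ control by -0.45 (adjusted p = 0.00187) and the Pgk1 3′ control by -0.15 (adjusted p = 0.0479). Those 3 falls were thus as large within the slide. For the Pgk1 5′ control the difference on slide 2 was -0.17, with a limma adjusted p of 0.0606, smaller than over all arrays and not called. Among all tested probes, 28.9% were called on slide 2.

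Within the I/R group itself, the Pgk1 5′ control differed between slides by as much as it did between groups. It averaged -0.51 on the 2 I/R arrays of slide 1 and -0.23 on the 3 of slide 2. The Gapdh 3′ control averaged 7.31 and 7.10 on the same arrays, in the opposite order. For the Gapdh probe, the Gapdh 5′ control and the Pgk1 3′ control the slide 1 mean minus the slide 2 mean was 0.04, -0.06 and 0.02, within the spread of the group.

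**Figure D2:**
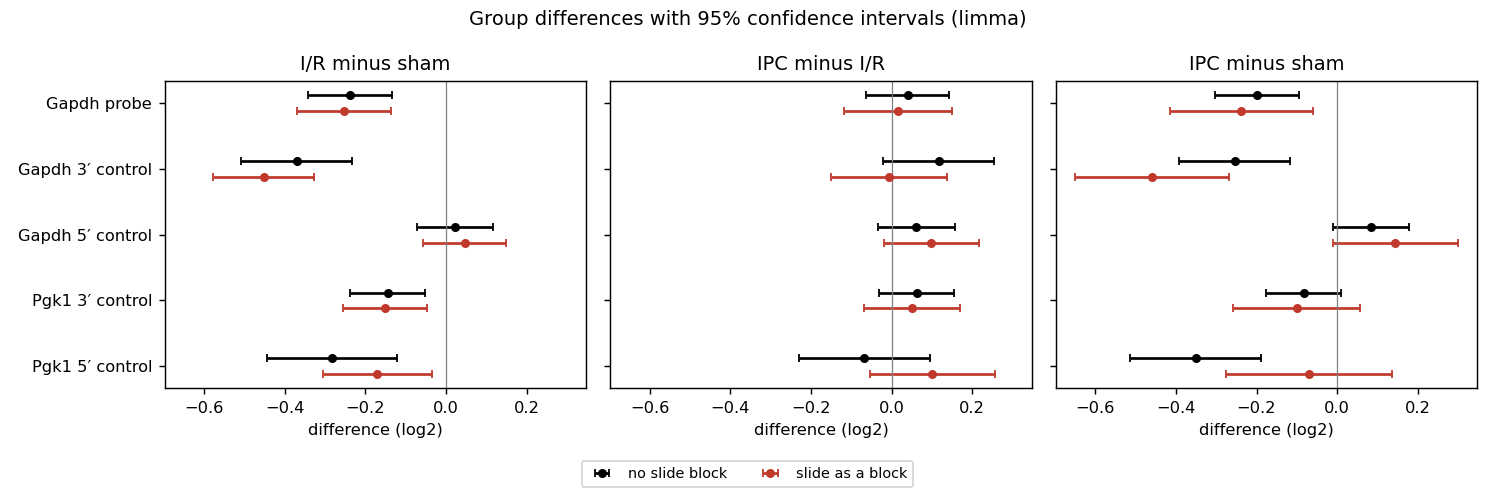
Difference between group means of the 5 probes (log2, points) with 95% confidence intervals (bars) from limma, without the slide (black) and with the slide as a block (red). In I/R against sham the intervals of 4 probes lie below 0 in both fits, while in IPC against sham the interval of the Pgk1 5′ control reaches past 0 once the slide is a block, at -0.07.

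The ratio between a pair of probes on the same array does not depend on any constant subtracted from the whole array, though quantile normalization and another background correction can change it. It shows whether the pair changed unequally. It was tested over 6 pairs and 3 comparisons with the exact two-sided permutation test, and 11 of these 18 tests gave a p under 0.05. P-values were adjusted over the 18 tests by Benjamini-Hochberg, and the pairs share probes.

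For Gapdh the 3′ over 5′ ratio (log2) was 0.97, 0.93, 0.94, 0.96 and 0.80 on sham arrays 1 to 5. It was 0.44, 0.39, 0.43, 0.70 and 0.68 on the I/R arrays and 0.62, 0.65, 0.51, 0.56 and 0.57 on the IPC arrays. Every I/R and IPC array had a lower ratio than every sham array, and within I/R the arrays of slide 1 were higher than those of slide 2. The means were 0.92 ± 0.0706, 0.53 ± 0.147 and 0.58 ± 0.0546 (SD, n = 5 each). I/R differed from sham by -0.39 (exact permutation p = 0.00794, adjusted 0.0179), and by -0.50 on slide 2 alone (exact permutation p = 0.0357, the smallest that 3 against 5 allow). The probe for the Gapdh mRNA over the 5′ control behaved alike, with means of 1.95, 1.69 and 1.67 in sham, I/R and IPC and a difference of -0.26 between I/R and sham (exact permutation p = 0.00794, adjusted 0.0179).

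The Gapdh probe over its 3′ control had means of 1.03, 1.16 and 1.09 in the 3 groups. I/R exceeded sham by 0.13 (exact permutation p = 0.0397, adjusted 0.0649), with overlapping groups, and the unadjusted call was lost when any of 6 single arrays was left out. On slide 2 alone I/R exceeded sham by 0.20 (exact permutation p = 0.0357, unadjusted, the smallest that its arrays allow). Its I/R arrays read 1.22, 1.23 and 1.24, above the highest sham array at 1.09. The I/R arrays of slide 1 read 1.04 and 1.08, within the sham range. Over all arrays and past the adjusted threshold, the 5′ control thus changed unequally with both other Gapdh probes. Those 2 other probes were not shown to change unequally over all arrays, but their ratio did differ on slide 2, without adjustment.

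In Pgk1 the 3′ over 5′ ratio went the other way. It was 7.62, 7.61, 7.65, 7.59 and 7.51 in sham, 7.67, 7.67, 7.51, 7.92 and 7.91 in I/R, and 7.92, 7.95, 7.87, 7.79 and 7.80 in IPC. I/R arrays 4 and 5, on slide 1, lay among the IPC arrays and I/R arrays 1 to 3 lay near sham. Means of 7.60 ± 0.0521 and 7.74 ± 0.176 (SD, n = 5 each) gave a difference of 0.14 between I/R and sham that did not pass (exact permutation p = 0.167, adjusted 0.200). It was 0.02 on slide 2 (exact permutation p = 0.750), and 0.19 without I/R array 3 (exact permutation p = 0.0159). It passed after quantile normalization, at 0.25, and after normexp with quantile normalization, at 0.19 (exact permutation p = 0.00794 each). The integrity of the RNA was not used here, and its part in these ratios was not tested.

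**Figure D3:**
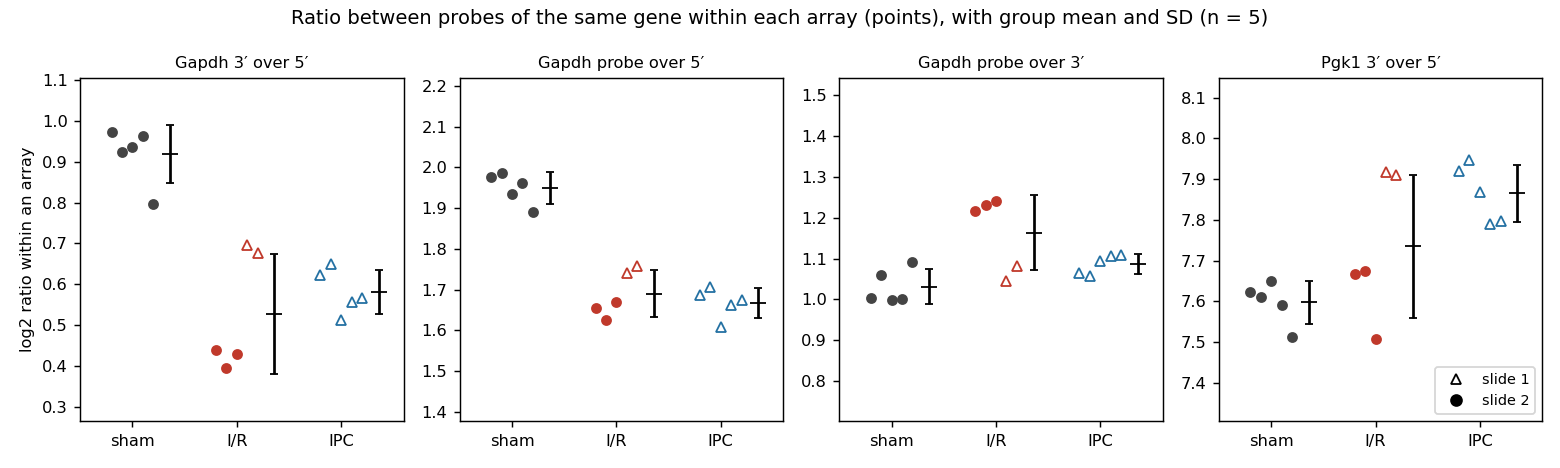
Ratio between probes of the same gene on each array (log2, vertical axes of equal span), with group mean and SD (n = 5); filled circles are slide 2 and open triangles slide 1. The Gapdh 3′ over 5′ ratio is at least 0.80 on all sham arrays and at most 0.70 on all others, while the Pgk1 3′ over 5′ ratio separates the arrays of slide 1 from those of slide 2.

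Between the genes, the Gapdh 3′ control minus the Pgk1 3′ control changed by -0.23 from sham to I/R (exact permutation p = 0.0238, adjusted 0.0476), so the Gapdh 3′ control fell further. The Gapdh 5′ control minus the Pgk1 5′ control changed by 0.30 (exact permutation p = 0.00794, adjusted 0.0179). On slide 2 alone the changes were -0.30 and 0.22 (exact permutation p = 0.0357 each). The excess was thus on the side of Gapdh at the 3′ ends and of Pgk1 at the 5′ ends.

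Comparing IPC with I/R asks whether the short preconditioning changed the response to the long ischaemia. None of the 5 probes was called, where 7.78% of all tested probes were. At an unadjusted p under 0.05 the count was also 0, both in limma and in the exact permutation test. No probe had groups that did not overlap, where 8.34% of tested probes did.

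Point by point, the Gapdh probe read 8.40, 8.40, 8.28, 8.45 and 8.40 in IPC, with a mean of 8.39 ± 0.0638 (SD, n = 5) that exceeded I/R by 0.04 (95% confidence interval -0.06 to 0.14). Its 3′ control read 7.33, 7.35, 7.18, 7.34 and 7.29, with a mean of 7.30 ± 0.0689 and a difference of 0.12 (interval -0.02 to 0.25). These levels covered much the same ranges as in I/R. The Gapdh 5′ control read 6.71, 6.70, 6.67, 6.79 and 6.72, or 6.72 ± 0.0426 on average and 0.06 above I/R (interval -0.03 to 0.16).

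For Pgk1 in IPC, the 3′ control read 7.47, 7.48, 7.36, 7.49 and 7.47, with a mean of 7.45 ± 0.0543 (SD, n = 5), 0.06 above I/R (95% confidence interval -0.03 to 0.15). The 5′ control read -0.45, -0.47, -0.51, -0.30 and -0.33, with a mean of -0.41 ± 0.0929, and differed by -0.07 (interval -0.23 to 0.09). All 5 intervals include 0 and together they run from -0.23 to 0.25, so for each probe the data leave room for any difference inside its own interval. On slide 1, with 2 I/R and 5 IPC arrays, the Gapdh 3′ control differed by -0.0062 and the Pgk1 5′ control by 0.10, in the opposite direction to the comparison over all arrays. Exact two-sided permutation tests of 2 arrays against 5 cannot go below p = 0.0952.

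Comparing IPC with sham asks what the whole procedure left changed. The sham arrays are those used against I/R, so the counts are not separate evidence. Gapdh was lower in IPC by its mRNA probe and its 3′ control, and Pgk1 by its 5′ control, which makes 3 of 5 probes where 16.4% of tested probes were lower and 30.0% were called. The same 3 had groups that did not overlap, where 16.0% of tested probes were lower in that way and 27.3% did not overlap in either direction.

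The differences between IPC and sham were -0.20 for the Gapdh probe (limma adjusted p = 0.00633), -0.25 for its 3′ control (adjusted p = 0.00765) and -0.35 for the Pgk1 5′ control (adjusted p = 0.00292). In signal they correspond to -12.9%, -16.2% and -21.6%. The Gapdh 5′ control was at 0.08 above sham (95% confidence interval -0.01 to 0.18, limma adjusted p = 0.179) and the Pgk1 3′ control at -0.08 (interval -0.18 to 0.01, adjusted p = 0.171). The last 2 had unadjusted exact permutation p-values of 0.0397 and 0.0159, with overlapping groups. No slide holds both IPC and sham arrays, so the comparison has no value within a slide. With the slide as a block, estimated through the I/R arrays, the Pgk1 5′ control was at -0.07 (limma adjusted p = 0.635), the Gapdh probe at -0.24 (adjusted p = 0.0567) and the Gapdh 3′ control at -0.46 (adjusted p = 0.00342). Among all tested probes 20.9% were called with that block.

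Within arrays, the Gapdh 3′ over 5′ ratio was lower in IPC than in sham by 0.34 on average (a difference of -0.34, exact permutation p = 0.00794, adjusted 0.0179). The Pgk1 3′ over 5′ ratio was higher by 0.27 (exact permutation p = 0.00794, adjusted 0.0179), with a mean of 7.86 ± 0.0704 (SD, n = 5). In this comparison the ratios of both genes passed, in opposite directions. As sham and IPC lie on different slides, this comparison by itself cannot tell the slide and the operation apart. The I/R arrays lie on both slides. The Gapdh ratio was at -0.50 in I/R against sham on slide 2, and at -0.10 in IPC against I/R on slide 1. For the Pgk1 ratio the same 2 differences were 0.02 and -0.049, so its rise over all arrays was not seen within either slide. Between IPC and I/R neither ratio differed past the threshold (0.05 for Gapdh with exact permutation p = 0.444, and 0.13 for Pgk1 with p = 0.151).

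How far the falls depend on the scaling of the arrays differed between probes. From sham to I/R, the Gapdh 3′ control fell past the threshold under the 75th percentile, the median, quantile normalization and the mean of the other 14 named probes, and the Pgk1 5′ control did so too. Of all tested probes 23.8% were called under the median, 30.8% under the 14 named probes and 29.7% after quantile normalization. The Gapdh probe was at -0.086 with a limma adjusted p of 0.281 after quantile normalization, and the Pgk1 3′ control at -0.036 with an adjusted p of 0.557. Without any scaling the 4 probes were still at or below -0.035, and of them the Pgk1 5′ control alone passed, where 21.8% of all tested probes were called.

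Against sham, the sign of several IPC differences turned without scaling, where the median of all tested probes itself moved by 0.36 and 49.7% of them were called. There the Gapdh probe was at 0.17 and its 3′ control at 0.11, both not called, and the Pgk1 3′ control was at 0.29 (limma adjusted p = 0.0205). The Gapdh 5′ control was at 0.45 (limma adjusted p = 0.00045), and it passed as higher in IPC than in sham under quantile normalization as well, at 0.17 (adjusted p = 0.00631, 28.8% of all tested probes called). The Gapdh mRNA probe was not called after quantile normalization in this comparison either (-0.11, adjusted p = 0.166).

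**Figure D4:**
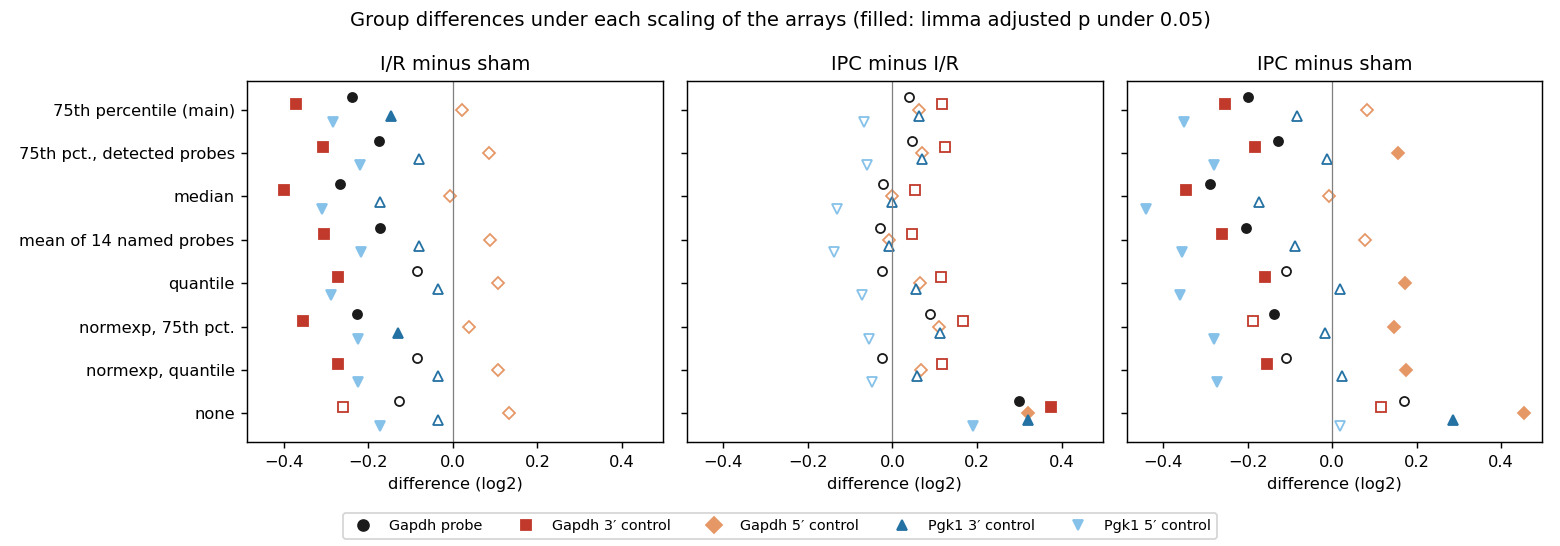
Difference between group means (log2, horizontal axes) of the 5 probes under 8 ways to scale the arrays (rows); filled symbols have a limma adjusted p under 0.05. In I/R against sham every probe but the Gapdh 5′ control stays left of 0 in every row. The Pgk1 5′ control (light blue triangles) is filled there in every row, and the Gapdh 3′ control (red squares) in every row but that without scaling. Without scaling most IPC differences move to the right of 0.

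Spots of a probe varied within an array too. The median SD over the spots of a probe was 0.0438 for the Gapdh probe, 0.0591 and 0.0506 for its 3′ and 5′ controls, and 0.0435 and 0.0605 for those of Pgk1. The arrays of a group had SDs between 0.0426 and 0.170, while the standard error of an array's mean over spots had medians of 0.0101 to 0.0194.

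Among the 14 other named probes and the genes of the control spots, the pattern of the Gapdh probe over the 15 arrays was nearest to the mean of the Pgk1 controls, with Ppia close behind. Likeness was the root mean square difference of profiles centred on their mean, in log2 units, and the arrays share scaling and slides. For the Gapdh probe it was 0.0635 to the mean of the Pgk1 controls, 0.0637 to Ppia, a prolyl isomerase, and 0.0668 to Nono, an RNA-binding protein of the nucleus. For the mean of the Pgk1 controls it was 0.0241 to Nono, 0.0398 to Rpl13a, a ribosomal protein, and 0.0635 to Gapdh. These neighbours are themselves genes often used as standards, and they fell from sham to I/R as well: Ppia by a difference of -0.26 (limma adjusted p = 0.00314), Nono by -0.22 (adjusted p = 0.00610) and Rpl13a by -0.22 (adjusted p = 0.00783). They were picked by likeness over these same arrays, so their fall is not separate evidence. Of the 15 named probes, Gapdh included, 7 were called lower in I/R than in sham and 2 higher. Of all tested probes 16.4% were lower and 30.9% differed in either direction. The 2 ends of Gapdh were less alike, at 0.195, than the Gapdh probe and the mean of the Pgk1 controls. Single control probes of the 2 genes were further apart than that mean and the Gapdh probe, at 0.118 for the 3′ controls and 0.199 for the 5′ controls. The 2 ends of Pgk1 were at 0.149.

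Of 31 genes listed for glycolysis and lactate transport, the array named Gapdh and Ldhal6b, a lactate dehydrogenase of the testis, besides Pgk1 by its control spots. From sham to I/R, Ldhal6b was at -0.15 with a limma adjusted p of 0.707, and none of its 3 comparisons passed. Its spots disagreed within arrays, with an SD of up to 1.88 (sham array 2), which limits what these comparisons could show. Of 9 genes at side branches, 2 were named. G6pd2, a copy of the gene for glucose-6-phosphate dehydrogenase, was at -0.10 from sham to I/R (limma adjusted p = 0.0714), with groups that did not overlap (exact permutation p = 0.00794), and fell from sham to IPC, by a difference of -0.19 (adjusted p = 0.00197). Gk, which encodes glycerol kinase, was at 0.02, 0.08 and 0.10 in I/R against sham, IPC against I/R and IPC against sham, and none was called.

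The array also carries control spots for the rat and human GAPDH and PGK1 genes, 8 probes in all, read here by mouse RNA. They were fitted after the deposited values had been seen. From sham to I/R, 5 of the 8 fell, none rose and 3 did not pass, and from I/R to IPC none passed. Of all tested probes, as given above, 16.4% were lower in I/R than in sham and 7.78% were called between IPC and I/R. One of the 5, the rat PGK1 3′ control, had 109 of its 150 spots well above background over the 15 arrays and overlapping groups. At the 3′ end of GAPDH the rat control was at -0.33 (limma adjusted p = 0.000823) and the human one, with all 150 spots well above background, at -0.08 (adjusted p = 0.297), where the mouse one was at -0.37. From sham to IPC the human GAPDH 3′ control was at 0.0040 (limma adjusted p = 0.967) and the mouse one at -0.25. The rat PGK1 5′ control was at -0.31 from sham to I/R (adjusted p = 0.00724).

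At the 5′ end of GAPDH the species' probes gave different values as well, and at neither end were the differences between them tested. The rat 5′ control fell by a difference of -0.24 (limma adjusted p = 0.00504), the human one was at -0.20 and did not pass (adjusted p = 0.250), and the mouse one was at 0.02. From sham to IPC, 4 of the 8 fell, 3 did not pass and the human PGK1 5′ control rose, by 0.26 (limma adjusted p = 0.0222), where 16.4% of all tested probes were lower and 30.0% were called. Of the human PGK1 5′ control 108 of 150 spots were well above background over the 15 arrays, and the rat PGK1 3′ control, with 109, is among the 4 that fell. For the human PGK1 5′ control, 2 to 5 of the 10 spots were well above background on each sham array, and all 10 on each IPC array. Its rise is thus measured from sham levels near background, on the other slide. The profiles of the human PGK1 3′ and rat PGK1 5′ controls lay closest to those of the matching mouse spots, at root mean square differences of 0.0368 and 0.0332, and the other 6 lay at 0.134 to 0.262. Whether the species' probes bind the same stretch of the transcript was not tested.

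**Figure D5:**
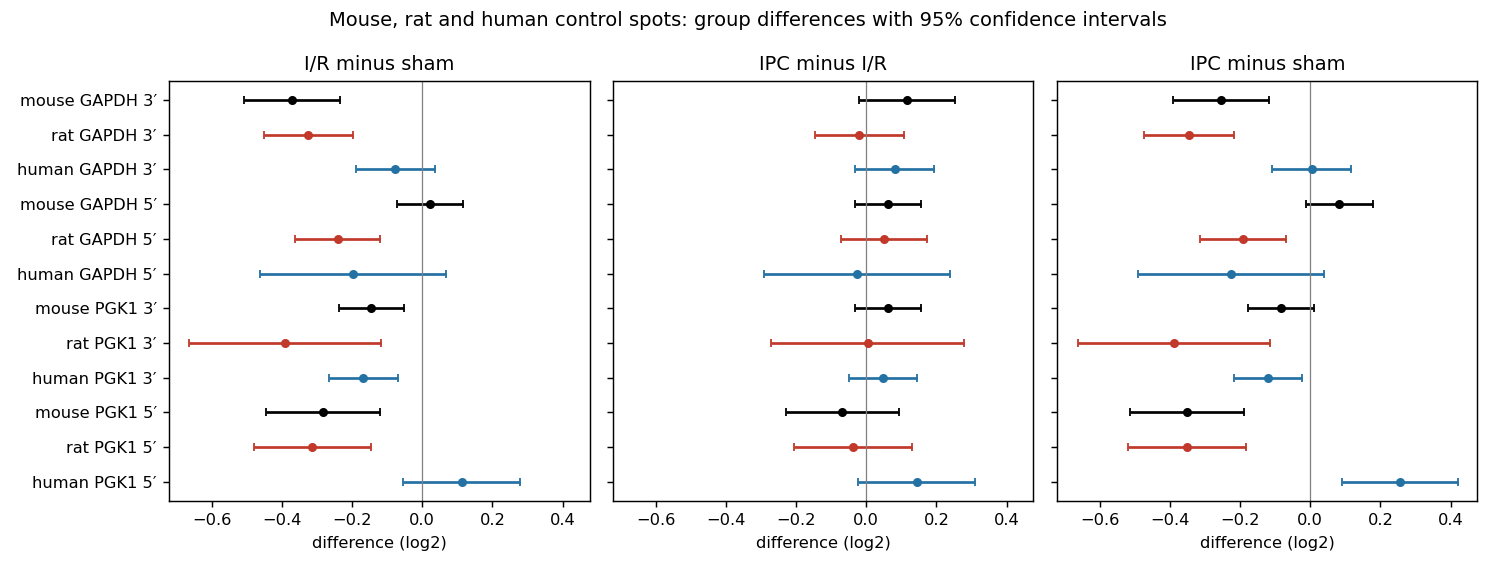
Difference between group means (log2, points) with 95% confidence intervals (bars) for the mouse (black), rat (red) and human (blue) control probes of GAPDH and PGK1. In I/R against sham the mouse GAPDH 5′ control sits at 0.02 and the rat one at -0.24, and the human PGK1 5′ control is the one probe whose interval lies above 0 in IPC against sham.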

How the data were processed

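Liver RNA was amplified with random primers, labelled with Cy3 and hybridised to one-colour arrays, per the labels' protocols. The deposited files hold spot intensities from Agilent Feature Extraction 11.0.1.1, and the intensity used is its processed, background-corrected signal, per the file headers. What the submitters did after that is not given in the sources used here. The values were put on a log2 scale, scaled and averaged over unmarked spots from the deposited intensities.

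The 34985 probes that exceeded background clearly on 5 or more of the 15 arrays were tested, and the 4 mouse control probes were added as rows. The fit was a mean per group over all arrays with limma 3.58.1 in R 4.3.3, with Benjamini-Hochberg adjustment over the 34989 rows. It was tested on simulated data. Files were read with the package data.table (version 1.17.8), permutation tests used scipy 1.17.1 and plots matplotlib 3.10.9. Precision is limited by the number of arrays.

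The members, lists and the rule for named genes (the members, listed pathway genes and the 3 most alike named probes for each gene) were chosen with earlier results of these data known. A comparison with other mouse genes that have 3′ and 5′ controls was planned, but only these 2 genes have such spots, so the rat and human spots were used. Symbols came from RefSeq (GRCm38.p6 names), matching 15 of 15 named probes, and the array grid was made on mm9, so no coordinates of probes are given. Replicate numbers did not pair the arrays: deviations from group means of 15 same-numbered pairs correlated at -0.37 to 0.51, and 5 exceeded 0.1. Alternatives were other scalings, background corrections, filters, spot averages, slide and replicate blocks, and leaving out each array.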

Additional observations from a re-analysis of the deposited data

Results flagged for a closer look

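In 21 combinations of group and quantity (the 5 probes and both 3′ over 5′ ratios in 3 groups), 3 held an array far from the other 4, where chance gives about 1 in 20 groups. The Gapdh 5′ control read 6.55 in I/R array 4, against 6.66 in the next array, a gap of 0.806 of the group's range. The Pgk1 3′ control read 7.36 in IPC array 3, against 7.47 in the next, a gap of 0.825 of the range. The Gapdh 3′ over 5′ ratio (log2) was 0.80 in sham array 5, against 0.93 in the next, a gap of 0.729 of the range. That sham array still lay above every I/R and IPC array.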

How the results depend on the processing

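Values are log2 differences, calls are at limma's adjusted p or, for ratios, an exact permutation p under 0.05, and the cause of each change was not tested. I/R against sham: the Pgk1 3′ control was not called with the 75th percentile over detected probes (-0.081), the mean of 14 named probes (-0.080), the median (-0.17), no filter on dim probes (-0.15), no scaling (-0.035), quantile (-0.036), normexp and quantile (-0.036) and E1A spike-in spots, of which 3.43% to 20.3% were well above background on an array (-0.091). The Gapdh probe was not called with quantile (-0.086), normexp and quantile (-0.085), no scaling (-0.13) and E1A (-0.18), nor the Gapdh 3′ control with no scaling (-0.26) and E1A (-0.32). The Pgk1 5′ control was not called within slide 2 (-0.17). The Gapdh 5′ control turned to -0.0055 with the median and to -0.035 with marked spots kept. The Pgk1 3′ over 5′ ratio passed with quantile (0.25) and normexp and quantile (0.19).

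IPC against I/R: no probe was called except without scaling, at 0.30 (Gapdh probe), 0.38 and 0.32 (Gapdh 3′ and 5′ controls), 0.32 (Pgk1 3′) and, turned, 0.19 (Pgk1 5′). Signs also turned with slide as a block, within slide 1 and in the exact test within slides, at -0.0062 for Gapdh 3′ and 0.10 for Pgk1 5′. The latter was at 0.020 with slide as a random block and 0.064 with E1A. With the mean of 14 named probes the Gapdh probe, its 5′ control and Pgk1 3′ were at -0.031, -0.0089 and -0.0087, and with the median at -0.024, -0.0018 and -0.0017. The Gapdh probe was at -0.024 with quantile and -0.025 with normexp and quantile. Within slide 1, the ratios turned to -0.10 (Gapdh 3′ over 5′), -0.049 (Pgk1 3′ over 5′), 0.023 (Gapdh probe over 3′), -0.058 (Gapdh 3′ over Pgk1 3′) and -0.0020 (Gapdh 5′ over Pgk1 5′). Ratios that passed were Pgk1 3′ over 5′ with normexp and quantile (0.11), the Gapdh probe over 5′ with quantile (-0.089) and normexp and quantile (-0.093), and Gapdh 5′ over Pgk1 5′ with normexp and quantile (0.12) and without I/R array 4 (0.16) or 5 (0.16).

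IPC against sham: the Gapdh 5′ control passed as higher with detected probes (0.15), E1A (0.27), no scaling (0.45), normexp and the 75th percentile (0.15), normexp and quantile (0.18), quantile (0.17) and the exact test (0.083), and was at -0.0073 with the median. The Pgk1 3′ control passed in the exact test (-0.083), and turned to 0.10 with E1A, 0.29 without scaling, 0.023 with normexp and quantile and 0.018 with quantile. The Gapdh probe was not called with quantile (-0.11), normexp and quantile (-0.11), E1A (-0.013) or slide as a block (-0.24), and turned to 0.17 without scaling. The Gapdh 3′ control was not called with E1A (-0.069) or normexp and the 75th percentile (-0.19), and turned to 0.11 without scaling. The Pgk1 5′ control was not called with E1A (-0.17), slide as a block (-0.070) or as a random block (-0.20), and turned to 0.019 without scaling.

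With the replicate number as a block, which does not mark a pairing, the Pgk1 3′ control was at -0.15 in I/R against sham (limma adjusted p = 0.0627). As 5 pairs, the ratios were tested by flipping the signs of the paired differences in every way. This exact sign-flip p cannot go below 0.0625. Against sham, the Gapdh 3′ over 5′ ratio reached that value at -0.39 in I/R and -0.34 in IPC. The Pgk1 ratio reached it at 0.27 in IPC against sham. The block left 1693 of all tested probes called in IPC against I/R, against 2722.

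With each array left out in turn, I/R against sham ranged over -0.16 to -0.13 for Pgk1 3′ and 0.092 to 0.19 for the Pgk1 ratio, which passed without I/R array 3.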

Other observations

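As a guide to how steady each transcript was over all 15 arrays, the SD of the scaled log2 level was 0.122 for the Gapdh probe, rank 8 among the 15 probes with a gene name. Gk, the gene of glycerol kinase, had the lowest SD (0.0706) and Ldhal6b the highest (0.412). Actb, which encodes cytoplasmic actin and is another common standard, was at 0.291. Within Gapdh and Pgk1 the value depended on the probe. It was 0.0601 for the Gapdh 5′ control and 0.182 for its 3′ control, and 0.0766 for the Pgk1 3′ control and 0.190 for its 5′ control. These values include the differences between the groups and slides, were computed after the data had been seen, and carry no test.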
